A study of Mus musculus with 18 samples.

Results

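The cytosolic ribosomal protein genes are the 76 genes of the count table whose symbol is that of a protein of the large (Rpl) or small (Rps) ribosomal subunit or of the stalk (Rplp0, Rplp1, Rplp2), with Rpsa included. Names of pseudogenes and of paralogs were kept out, and a total of at least 10 counts over the 18 libraries was required. They are 76 of the 45706 genes listed, and all 76 were among the 16619 genes with enough counts to be tested. The smallest count of any of them in any library was 218. RNA was sequenced from mouse induced pluripotent stem cells (iPSCs), cells reprogrammed to a state like that of the early embryo, that were wild type (wt) for Hmga2 or carried a knock-out (KO) of it. Hmga2 encodes an architectural chromatin protein that binds AT-rich DNA. The cells were taken at 0 h, and at 24 h of induction into epiblast-like cells (EpiLCs), the state that follows the naive one, in a medium containing Activin A and bFGF. The 6 groups were wt, Hmga2 KO clone #1 (KO#1) and Hmga2 KO clone #2 (KO#2) at 0 h and at 24 h, with 3 libraries each. Every comparison with wt sets 1 KO clone against the wt cells, and within it a property of that clone and an effect of the KO cannot be told apart. The clones are therefore given separately. The iPSCs had been grown on inactivated fibroblast feeders with serum, LIF and the inhibitors PD0325901 and CHIR-99021, and the 24 h cells on a basement membrane matrix.

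The cytosolic ribosome is assembled in the nucleolus from ribosomal RNA and, for most of these proteins, a single copy of each, so the cell needs them in like amounts. Their messengers are among the most abundant in growing cells. Most of them begin with a C followed by a run of pyrimidines, the terminal oligopyrimidine (TOP) motif, through which mTOR and Larp1 adjust their translation to nutrients and growth factors. Pluripotent stem cells have open, active chromatin and restrained translation, and protein synthesis is known to increase as they leave the naive state.

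The start of transcription is the feature by which these genes are known as a class, and it is shown here for members that span the range of change in wt cells. In the RefSeq promoter windows (GRCm38.p6, 250 bases before to 50 after the start), 56 of the 76 genes were matched, with 66 windows. At the annotated start base, 13 of the 66 windows (19.7%) had a C followed by at least 4 pyrimidines, against 2.51% of all 32851 windows. Each line gives the 30 bases before the start and the first 20 transcribed bases, with the pyrimidine run from the start base in capitals.
Rps27 (chr3:90213629-90213678, minus strand): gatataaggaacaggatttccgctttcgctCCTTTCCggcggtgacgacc
Rpl35a (chr16:33056452-33056501, plus strand): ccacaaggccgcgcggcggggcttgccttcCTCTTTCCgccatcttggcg
Rps21 (chr2:180257349-180257398, plus strand): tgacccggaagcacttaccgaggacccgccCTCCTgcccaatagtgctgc
Rpl15 (chr14:18270967-18271016, minus strand): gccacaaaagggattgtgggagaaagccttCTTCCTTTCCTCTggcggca
Rps6 (chr4:86857348-86857397, minus strand): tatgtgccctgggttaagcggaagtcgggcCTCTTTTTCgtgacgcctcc
Rpl38 (chr11:114668550-114668599, plus strand): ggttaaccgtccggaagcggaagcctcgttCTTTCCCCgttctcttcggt
Rplp2 (chr7:141447621-141447670, plus strand): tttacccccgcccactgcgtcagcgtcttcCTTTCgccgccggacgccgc
Rpl28 (chr7:4792935-4792984, plus strand): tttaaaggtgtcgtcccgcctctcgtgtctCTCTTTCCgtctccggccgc
The Rpl15 window holds the longest of these runs, with 13 bases. The run was counted only from the annotated base, so a start placed a few bases away gave no match. Letters of 3 other motifs were searched on both strands of the whole windows. CCGGAAG, the core bound by ETS and GABP factors, was in 36.4% of the members' windows and in 8.86% of all windows. AAGATGGC, the YY1 core, was in 10.6% and 2.75%. TATAA was in 24.2% and 24.9%, nearly the same share. A match says that the letters are there, not that a factor binds.

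Library totals ran from 3466436 to 23872837 counts, with 3466436 to 10599720 in wt and 4531798 to 14613617 in KO#1 at 0 h, 18640956 to 23872837 in these lines at 24 h, and 13448569 to 17823888 in KO#2. Hmga2 had 13.3 to 22.4 CPM (counts scaled to the library's size, adjusted by TMM factors) in wt cells at 0 h, 1.75 to 10.2 in KO#1 and 1.84 to 8.25 in KO#2. At 24 h it had 5.51 to 5.93 CPM in wt, 0.871 to 3.68 in KO#1, and 10.5, 3.02 and 3.48 in the 3 libraries labelled KO#2, so that at 24 h its RNA did not separate KO#2 from wt (log2 fold change -0.04 ± 0.60 SE, edgeR adjusted p = 0.966). The difference from wt passed in KO#2 at 0 h (-1.90 ± 0.62, adjusted p = 0.0230) and did not in KO#1 at 0 h (-1.71 ± 0.63, adjusted p = 0.124) or 24 h (-1.36 ± 0.64, adjusted p = 0.220). The part of the gene removed in the clones is not given in the sources used here. For the suppression of Hmga2 the study cites a protein blot of its wt and KO clones. At 24 h, 7 of 8 epiblast markers had risen in each of the 3 lines and 8 of 10 naive markers had fallen, by the same test. Over all genes, 26.0%, 20.1% and 12.7% were called higher in wt, KO#1 and KO#2, and 24.7%, 20.6% and 13.3% lower. Against wt at 24 h, 5 naive markers were higher in KO#1 and 6 in KO#2, with median differences of 1.11 and 1.41, and 4 and 2 epiblast markers were lower, with medians of -1.20 and -0.56. The shares of all genes in these comparisons were 6.25% and 21.3% higher, and 3.61% and 16.0% lower. Protein-coding genes took 41.3% to 63.4% of all counts in wt and KO#1 at 24 h and 82.3% to 84.7% in KO#2 at 24 h, while structural noncoding RNAs such as Rn7s1 and Rn7sk took 25.3% to 42.5% and 5.58% to 9.52%. The 8 fibroblast markers summed to 110 to 390 CPM in wt at 0 h and 19.0 to 34.6 at 24 h, to 183 to 514 and 38.7 to 51.8 in KO#1, and to 331 to 898 and 71.0 to 219 in KO#2. Of these markers only Dcn was at 0, in the 3 wt libraries at 0 h and 1 KO#1 library at 0 h. The KO#2 library with 10.5 CPM of Hmga2 at 24 h had a marker sum of 219 CPM, against 71.0 and 122. In each KO group Hmga2 and the marker sum ranked the 3 libraries alike, and in the wt groups they did not. Whether feeder cells have a part in the Hmga2 counts was not tested. The part that these shifts in depth and composition have in the results on ribosomal protein genes was not tested beyond the alternative scalings given with them.

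Summed over the 76 genes, ribosomal protein messengers were higher at 24 h than at 0 h in wt and KO#1 cells and overlapped between the times in KO#2 cells. The 3 wt libraries at 0 h held 44771, 69428 and 55185 CPM, and those at 24 h held 129684, 118462 and 104039. KO#1 cells went from 46242, 56075 and 79473 CPM to 141229, 117380 and 91188. In these lines every 24 h library lay above every 0 h library. KO#2 cells had 33801, 55677 and 35182 CPM at 0 h and 31844, 42374 and 50862 at 24 h, and the 6 values overlapped. The 3 wt values at 24 h lay above all 6 KO#2 values. These are sums over the members and carry no test. In bulk RNA, a smaller share of cells of a type and less RNA per cell cannot be told apart.

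**Figure D1:**
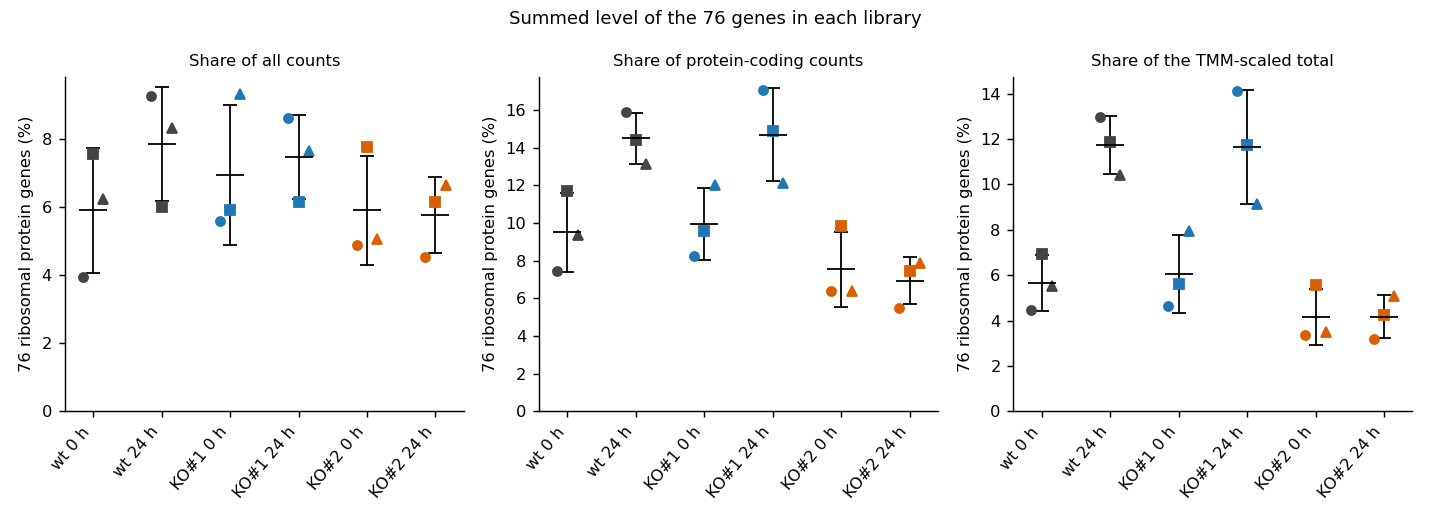
Share (%) of the counts that fell on the 76 ribosomal protein genes in each library, against 3 totals: all counts, the counts on protein-coding genes, and the total scaled by TMM factors. Circles, squares and triangles are replicates 1, 2 and 3, the line and bar are the mean and SD of 3 libraries. On the last scale wt cells went from 5.65% ± 1.24 to 11.7% ± 1.29 and KO#2 cells from 4.16% ± 1.23 to 4.17% ± 0.953, while on the first all 6 groups overlapped.

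The scale of the comparison decided the size of this difference. As a share of all counts, the members took 5.91% ± 1.83 (SD, n = 3) in wt at 0 h and 7.87% ± 1.67 at 24 h, and the ranges of these groups, 3.94% to 7.56% and 6.01% to 9.26%, overlapped. As a share of the counts on protein-coding genes, they took 9.51% ± 2.11 and 14.5% ± 1.38 in wt, 9.95% ± 1.93 and 14.7% ± 2.48 in KO#1, and 7.56% ± 2.00 and 6.94% ± 1.26 in KO#2. On this scale every wt and KO#1 library at 24 h was above every library of the same line at 0 h, and those of KO#2 overlapped. All fold changes below are on the TMM scale. With library sizes alone, the median of all tested genes moved from 0.03 to -0.58 in wt and from 0.00 to -0.78 in KO#1 (log2, 24 h against 0 h), and the members' median moved with it, from 1.10 to 0.45 and from 1.02 to 0.15. The distance between the members and all genes stayed at 1.07 and 1.03 in wt, and at 1.01 and 0.94 in KO#1.

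Members moved together within a library. In KO#2 cells at 0 h, replicate 2 had the highest CPM of the group for 76 of 76 genes, and at 24 h replicate 3 for 75 of 76. In KO#1 cells at 0 h replicate 3 was the highest for 70 genes, and in wt cells at 0 h replicate 2 for 67. In these 4 libraries Gm26917, a noncoding RNA gene, had the lowest share of all counts in its group, at 1.88%, 2.17%, 2.65% and 11.9% in the order given. In the other groups this did not hold. In KO#1 at 24 h replicate 1 was the highest for 64 members and in wt at 24 h for 47, while Gm26917 was lowest in replicate 3 of both. It took 1.88% to 33.3% of the counts of a library at 0 h and 2.17% to 8.81% at 24 h, and its part in the members' values was not tested. The balance of the subunits was steadier than the level. The summed CPM of the large subunit and stalk genes over that of the small subunit genes was 1.49 ± 0.02 (SD, n = 3) in wt at 0 h and 1.53 ± 0.06 at 24 h. The other 4 groups had means of 1.52.

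Levels between genes can be compared only per length, and per kilobase of annotated exon the members spanned a wide range in wt cells at 0 h. Rplp1, an acidic protein of the stalk that recruits elongation factors, was the highest at 2933 CPM per kb, ahead of Rps2 at 1274 and Rpl36 at 1259. Rps15a and Rps24 were the lowest with 55.3 and 67.8. The exon length used joins all annotated transcripts of a gene (383 to 6270 bases), and for Rps15a it was 6270 bases, which lowers its value. Rplp1 was again the highest in wt at 24 h with 8469 CPM per kb and in KO#2 at 24 h with 1685.

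In wt cells, ribosomal protein genes rose as a group during the first 24 h of EpiLC induction. The test called 62 of the 76 higher and 0 lower (edgeR quasi-likelihood test, Benjamini-Hochberg adjusted p under 0.05), where 26.0% of all tested genes were called higher and 24.7% lower. The log2 fold changes ran from 0.47 to 1.92 with a median of 1.10, against a median of 0.03 over all tested genes, and all 76 were positive. In 66 genes every 24 h library exceeded every 0 h library, against 30.2% of all genes. The large subunit (34 of 43), the small subunit (25 of 30) and the stalk (3 of 3) were alike in these counts. The count was 31 without replicate 1 of wt at 0 h, the library with the lowest total, 39 without replicate 1 of wt at 24 h, and 5 with library sizes alone.

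The largest rise was that of Rps29, a small zinc-binding protein of the 40S subunit. It had 235.5, 422 and 379 CPM at 0 h and 1447, 1433 and 1042 at 24 h, with no overlap, a log2 fold change of 1.92 ± 0.44 (SE, adjusted p = 0.00162). Rps27, another zinc-binding 40S protein, whose start is printed above, went from 284, 521 and 437 CPM to 1375, 1644 and 1313 (1.80 ± 0.38, adjusted p = 0.000957). Rpl27, of the 60S subunit, went from 271, 503 and 432.5 CPM to 1596, 1284 and 1225 (1.77 ± 0.38, adjusted p = 0.00110). In all 3 genes the lowest 0 h value was that of replicate 1. These 3 were picked as the largest rises among called genes whose groups did not overlap, so the lack of overlap is no finding of its own.

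Genes with known roles beside translation were spread over this range. Rps6, the target of S6 kinase, had 481, 785.5 and 655.5 CPM at 0 h and 1570, 1940 and 1207 at 24 h (log2 fold change 1.29 ± 0.33, adjusted p = 0.00370). Rpl11, which with Rpl5 and 5S rRNA can bind Mdm2, rose by 1.31 ± 0.37 (adjusted p = 0.00754), whereas Rpl5 itself had 1.02 ± 0.44 and did not pass (adjusted p = 0.0626). In Rpl5 the groups overlapped, since replicate 3 at 24 h had 499 CPM and replicate 2 at 0 h had 631.5. Rps19, mutated in Diamond-Blackfan anaemia, rose by 0.90 ± 0.29 (adjusted p = 0.0168), and Rps25, used by viral internal ribosome entry sites, by 1.54 ± 0.47 (adjusted p = 0.0106). Rpl38, needed for the translation of Hox messengers, rose by 1.11 ± 0.33 (adjusted p = 0.00906), and Rps4x, the X-linked small subunit gene, by 1.25 ± 0.51 (adjusted p = 0.0485), a call that was lost without any 1 of 11 libraries. Rplp0, Rplp1 and Rplp2 of the stalk rose by 0.97, 1.53 and 0.70.

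The 14 genes that did not pass in wt cells were Rpl3, Rpl5, Rpl10a, Rpl12, Rpl13, Rpl22, Rpl23a, Rpl28, Rpl36a, Rps2, Rps10, Rps20, Rps27a and Rpsa. Rpl3, which lines the peptidyl transferase centre, had the smallest value, 0.47 ± 0.29 (adjusted p = 0.187), with 968, 1626 and 1681 CPM at 0 h and 1863, 2456 and 1614 at 24 h. Its groups overlapped through replicate 3. Rps27a, which is made as a fusion with ubiquitin, had 0.75 ± 0.33 (adjusted p = 0.0659), and Rpsa, also known as a laminin receptor, 0.72 ± 0.31 (adjusted p = 0.0602). Rpl10a and Rpl22 had 0.60 ± 0.29 and 0.54 ± 0.30 (adjusted p = 0.0903 and 0.147). A value that misses the threshold does not show that the gene was level.

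In KO#1 cells 47 of the 76 genes rose and 0 fell, with 20.1% of all tested genes called higher and 20.6% lower. The median log2 fold change was 1.02 (all genes 0.00) and the range 0.05 to 1.94. Of the 47, 44 were also called in wt cells, 18 genes were called only in wt and 3 only in KO#1. The largest rise was that of Rps27, with 326, 397 and 720 CPM at 0 h and 2118, 2077 and 1358 at 24 h (1.94 ± 0.38, adjusted p = 0.000865). Rplp1 went from 1018, 1510 and 1685 CPM to 6007, 7022 and 3062 (1.93 ± 0.36, adjusted p = 0.000559), and Rps29 from 255, 281.5 and 705 to 1793, 1519 and 999.9 (1.79 ± 0.43, adjusted p = 0.00368). Lack of overlap was part of the rule that picked these 3. In each of them replicate 3 was the highest at 0 h and the lowest at 24 h. The count depended on single libraries. It was 17 and 23 without replicates 1 and 2 of KO#1 at 0 h, 20 and 29 without replicates 1 and 2 at 24 h, and 2 with library sizes alone.

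The difference between the responses of KO#1 and wt was small. It had a median of -0.16 over the members (all genes -0.04), ran from -0.56 to 0.40, and was negative for 60 of 76. The interaction term called 0 of the 76, where 0.253% of all genes were called higher and 0.138% lower. At an unadjusted p under 0.05 the count was 0 (10.1% of all genes), and DESeq2 called 0. The standard errors of the members ran from 0.32 to 0.80 on the log2 scale.

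In the libraries labelled KO#2, no ribosomal protein gene changed by the test between 0 h and 24 h. The edgeR test called 0 of the 76 higher and 0 lower, where 12.7% of all genes were called higher and 13.3% lower. At an unadjusted p under 0.05 the count was 0 (37.9% of all genes), and DESeq2 called 0. The log2 fold changes ran from -0.46 to 0.44 around a median of 0.02 (all genes -0.03), with 41 positive and 35 negative. In 0 of the 76 genes did the 0 h and 24 h libraries separate, against 22.8% of all genes in the higher and 21.9% in the lower direction. Rps27 had 165, 370 and 189 CPM at 0 h and 158, 252 and 330.5 at 24 h (0.03 ± 0.37). Rps29 had 163, 379 and 181 CPM and then 162, 301 and 376 (0.22 ± 0.42). Rplp1 had 678.5, 1184 and 719 CPM and then 588, 898 and 1036 (-0.03 ± 0.35). In all 3 the highest 0 h library was replicate 2 and the highest 24 h library replicate 3. Rps6 had 0.30 ± 0.33 and Rpl3 -0.32 ± 0.29.

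**Figure D2:**
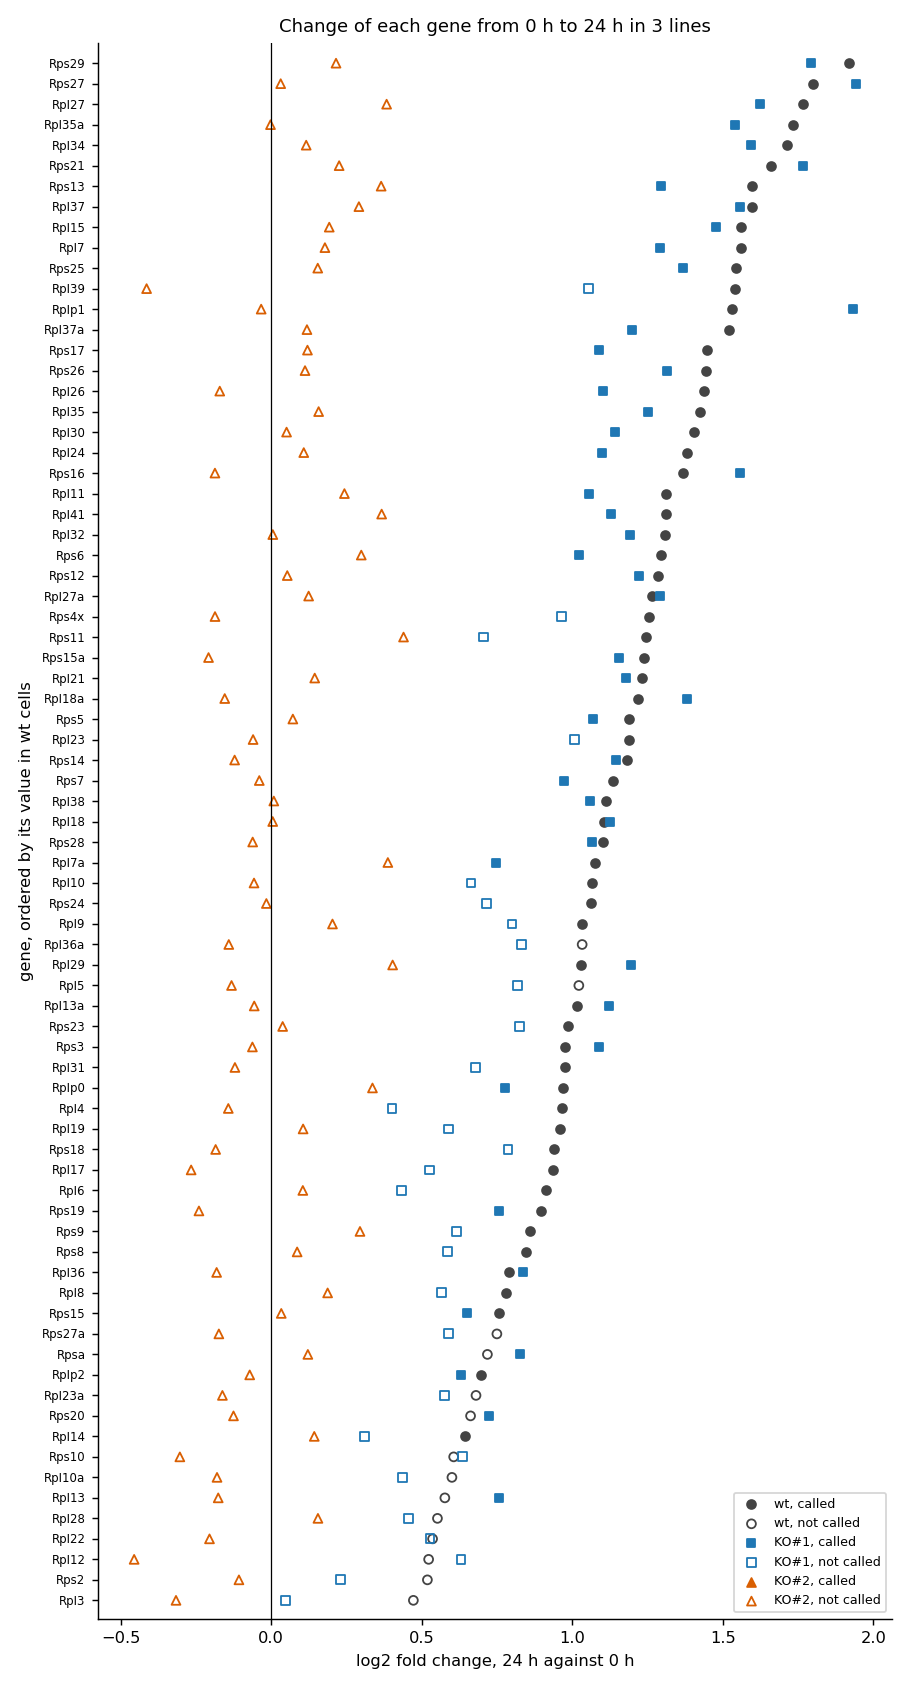
log2 fold change of each of the 76 genes from 0 h to 24 h (x axis) in wt (circles), KO#1 (squares) and KO#2 (triangles), filled where the edgeR adjusted p was under 0.05. Genes are ordered by their value in wt cells. Values in wt run from 0.47 to 1.92 and in KO#1 from 0.05 to 1.94, and those of KO#2 lie around 0, between -0.46 and 0.44, with none filled.

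The test of the difference between the responses of KO#2 and wt called 0 of the 76 genes, where 0.951% of all genes were called higher and 0.517% lower. The difference was negative for 76 of 76, from -1.95 to -0.40, with a median of -1.11 (all genes -0.02). At an unadjusted p under 0.05, 46 of the 76 passed, all lower, against 11.1% of all genes, and the smallest adjusted p of a member was 0.0788. DESeq2 called 10 lower and the edgeR fit with no filter on low counts 11 lower. Rps27 had a difference of -1.77 ± 0.53 (adjusted p = 0.0841), Rplp1 -1.56 ± 0.50 (adjusted p = 0.0954), and Rps29 -1.70 ± 0.60 (adjusted p = 0.120). The members that pass in wt and not in KO#2 are therefore not shown, gene by gene, to respond differently by the edgeR test as fitted.

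At 24 h the level of ribosomal protein messengers was lower in the libraries labelled KO#2 than in wt for nearly the whole group. The test called 68 of 76 lower and 0 higher, where 16.0% of all genes were called lower and 21.3% higher. The median log2 difference was -1.48 (all genes 0.20), the range -4.50 to -0.30, and all 76 values were negative. In 69 genes every KO#2 library was below every wt library, against 22.4% of all genes. With library sizes alone the median was -0.44 for the members and 1.24 for all genes, a distance of -1.69 as against -1.68 on the TMM scale, and 16 members were called lower. Leaving out any of the 18 libraries gave 55 to 70 calls. Other RNAs set these libraries apart too. Of 15 abundant structural noncoding RNAs, 12 rose from 0 h to 24 h in wt, 11 in KO#1 and 0 in KO#2, and 12 were lower in KO#2 than in wt at 24 h. Malat1, a nuclear noncoding RNA, went the other way, with 0.0241% to 0.0371% of all counts in wt and 0.225% to 0.408% in KO#2 at 24 h, and Neat1, another, had 11.1 to 17.3 CPM in wt and 26.2 to 46.2 in KO#2. At 0 h the 3 KO#2 libraries had 1.03% to 1.37% on Malat1, against at most 0.213% in wt. Of 15 tested transcripts of the mitochondrial genome, 7 were lower in KO#2 than in wt at 24 h and 0 higher, and their sum was 12887 to 30122 CPM in wt and 6999 to 11288 in KO#2. The part of these shifts, and of the naive markers that were higher in KO#2, in the members' difference was not tested.

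After Rpl29, described below, the largest differences at 24 h were those of Rpl34 and Rps27. Rpl34, of the 60S subunit, had 2489, 2402 and 2023 CPM in wt and 161, 335 and 371.5 in KO#2 (-3.00 ± 0.50, adjusted p = 0.000228). Rps27 had 1375, 1644 and 1313 CPM in wt against 158, 252 and 330.5 (-2.55 ± 0.39, adjusted p = 0.000122). In both genes, picked from called genes without overlap, the highest KO#2 library was far below the lowest wt library. Rpl38 had 918, 801 and 703 CPM in wt and 129, 183 and 199.9 in KO#2 (-2.24 ± 0.34, adjusted p = 0.000103). Rps19 was lower as well, at -1.34 ± 0.30, and Rpl11 at -1.37 ± 0.37 (adjusted p = 0.00203 and 0.00844). Rpl22, an RNA-binding 60S protein, had -1.59 ± 0.31, Rpsa -1.47 ± 0.31 and Rpl10a -1.26 ± 0.29, and these passed too.

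The 8 genes that did not pass at 24 h were Rpl4, Rpl5, Rpl7, Rpl9, Rpl10, Rpl23, Rpl30 and Rps4x. Rps4x had 1740, 1655 and 875 CPM in wt and 708, 1386 and 1382 in KO#2, which overlapped (-0.30 ± 0.50, adjusted p = 0.671). At 0 h it had 278.5, 865 and 644.5 CPM in wt and 1103, 1932 and 921 in KO#2, the largest positive difference of any member (1.15 ± 0.51), which did not pass (adjusted p = 0.0831). Rpl5 had -0.36 ± 0.44 at 24 h and 0.79 ± 0.44 at 0 h (adjusted p = 0.546 and 0.160).

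At 0 h the group was already lower in KO#2 than in wt for a part of its members. The test called 20 of 76 lower and 0 higher, where 16.6% of all genes were called lower and 21.5% higher. The median was -0.53 (all genes 0.10), from -3.87 to 1.15, with 60 of 76 negative. All 20 were also called lower at 24 h. Rpl28, of the 60S subunit, had 460.5, 497 and 539 CPM in wt and 181, 283 and 212 in KO#2 (-1.15 ± 0.26, adjusted p = 0.00300). Rpl38 had 306, 506 and 307 CPM in wt and 136, 226.5 and 147 in KO#2 (-1.14 ± 0.33, adjusted p = 0.0124). Both were picked from called genes whose groups did not overlap. Rplp0, Rpsa, Rpl13 and Rpl22 were among the other genes called, at -0.86 ± 0.27, -0.87 ± 0.31, -0.68 ± 0.26 and -0.85 ± 0.30 (adjusted p = 0.0200, 0.0347, 0.0464 and 0.0352). The call of Rpl13 was lost when any 1 of 14 libraries was left out. Rps6 had 0.06 ± 0.33 and Rps25 -0.03 ± 0.46. This count was the least stable. It was 3 and 6 without replicates 1 and 3 of KO#2, 9 and 13 without replicates 2 and 3 of wt, 9 with the 2 groups alone, and with library sizes alone 4 members were called higher and 1 lower. In that comparison the 8 fibroblast markers had a median log2 difference of 1.56, with 4 called higher, and at 24 h of 2.35, with 6 called higher. Whether these markers have a part in the members' differences was not tested.

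**Figure D3:**
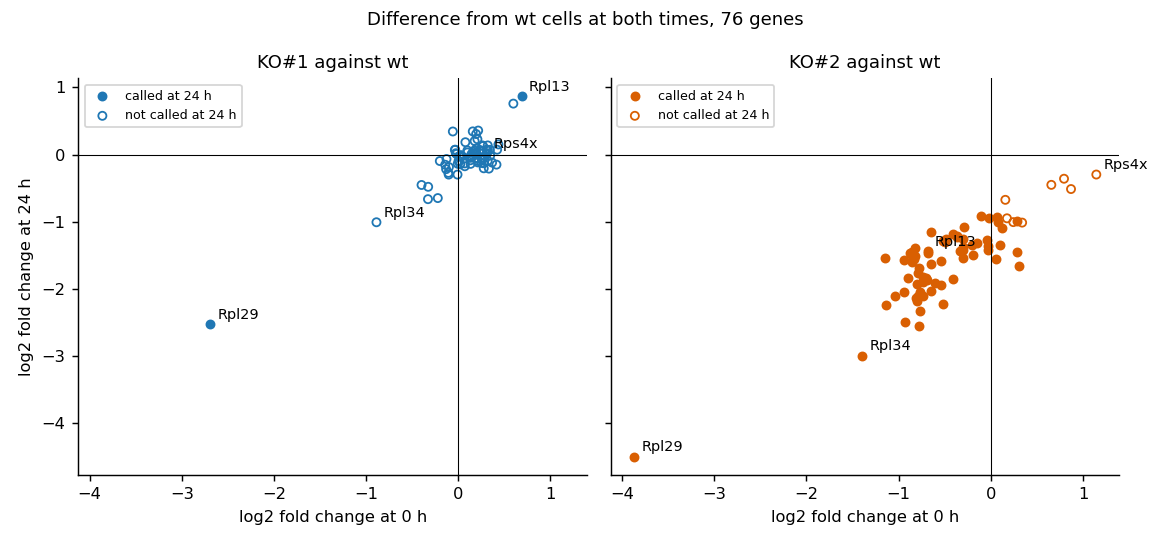
log2 difference of each of the 76 genes from wt cells at 0 h (x axis) and at 24 h (y axis), for KO#1 on the left and KO#2 on the right, filled where called at 24 h. In KO#1 Rpl29 is the farthest from 0, at -2.69 and -2.53, followed by Rpl34 at -0.89 and -1.01 and Rpl13 at 0.69 and 0.87, while KO#2 genes reach from -0.30 to -4.50 on the y axis. Both panels use the same wt libraries.

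Few ribosomal protein genes differed between KO#1 and wt cells by the test at either time. At 0 h the test called 1 of 76 lower, Rpl29, and 0 higher, where 2.68% of all genes were called lower and 3.99% higher, and the median difference was 0.16 (all genes 0.02). At 24 h it called Rpl13 higher and Rpl29 lower, where 6.25% of all genes were called higher and 3.61% lower, and the median was -0.03. Rpl13, of the 60S subunit, was picked from called genes whose groups did not overlap. It had 2086, 1495 and 1903 CPM in wt at 24 h and 4250, 2964 and 2778 in KO#1 (0.87 ± 0.26, adjusted p = 0.0424). This call was lost when any of 10 libraries was left out, with library sizes alone, with no filter and with the 2 groups alone (adjusted p from 0.0504 to 0.203). Rpl13 overlaps the genes Gm20388 and Mir7079 and holds 1 snoRNA gene. Such overlaps are common among the 76 members, of which 28 overlap other genes and 29 hold snoRNA genes. Whether reads of the genes that overlap Rpl13 were counted on it was not tested.

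Rpl29, a 60S protein that also binds heparin, stood apart from the other members in both KO clones. It had 349, 490 and 440 CPM in wt cells at 0 h and 958, 923.5 and 729 at 24 h. KO#1 had 41.6, 45.5 and 109.8 CPM at 0 h and 201, 135 and 116 at 24 h, and KO#2 had 22.6, 41.7 and 23.1 and then 25.4, 41.1 and 49.0. No KO library reached the lowest wt library of its time, which the rule that picked Rpl29 required. The log2 difference from wt was -2.69 ± 0.39 in KO#1 and -3.87 ± 0.41 in KO#2 at 0 h, and -2.53 ± 0.38 and -4.50 ± 0.42 at 24 h (adjusted p = 0.000198, 4.33e-06, 0.000258 and 1.03e-06). From 0 h to 24 h it rose in wt (1.03 ± 0.37) and in KO#1 (1.20 ± 0.37), and had 0.40 ± 0.36 in KO#2 (adjusted p = 0.448).

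The counts of Rpl29 are uncertain, because processed pseudogenes almost identical to its messenger carry counts in the KO libraries. Among 64 annotated copies, Gm13841 had 0 to 3.61 CPM in the 6 wt libraries, 75.8 to 175 in KO#1 and 33.2 to 73.6 in KO#2. Gm8210 had 0 to 1.75 CPM in wt, 0, 0 and 181 in KO#1 at 0 h, 109 to 234 in KO#1 at 24 h and 43.8 to 103 in KO#2. All copies together took 1.25% of the counts of Rpl29 and its copies in wt at 0 h, 75.8% in KO#1 and 81.8% in KO#2, and 0.775%, 68.6% and 80.8% at 24 h. With the copies summed into the gene, the difference from wt was -0.67 ± 0.31 in KO#1 at 0 h and -0.87 ± 0.31 at 24 h, neither of which passed (adjusted p = 0.232 and 0.0875). In KO#2 it was -1.43 ± 0.31 and -2.13 ± 0.32, and both passed (adjusted p = 0.00251 and 0.000103). Rpl29 lies on chromosome 9 (106429454 to 106431568, GRCm38), Gm8210 on chromosome 1 (43189156 to 43189638) and Gm13841 on chromosome 5 (115801677 to 115802159).

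Both copies differ from the 480 coding bases of Rpl29 at 3 positions, counted from the first base of the start codon, C72A, C300T and T423C. Reads that lie within these coding bases and cover none of the 3 positions match gene and copies alike. The stretches around these positions, from the GENCODE M21 transcripts on GRCm38, have the differing base in capitals.
Rpl29, coding bases 52 to 92: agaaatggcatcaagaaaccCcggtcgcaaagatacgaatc
Gm8210, coding bases 52 to 92: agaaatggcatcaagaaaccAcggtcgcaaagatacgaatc
Gm13841, coding bases 52 to 92: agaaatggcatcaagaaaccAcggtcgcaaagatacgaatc
Rpl29, coding bases 280 to 320: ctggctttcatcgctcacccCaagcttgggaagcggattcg
Gm8210, coding bases 280 to 320: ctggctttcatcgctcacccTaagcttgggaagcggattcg
Gm13841, coding bases 280 to 320: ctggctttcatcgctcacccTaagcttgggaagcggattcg
Rpl29, coding bases 403 to 443: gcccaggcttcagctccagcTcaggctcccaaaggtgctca
Gm8210, coding bases 403 to 443: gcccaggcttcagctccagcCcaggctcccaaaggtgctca
Gm13841, coding bases 403 to 443: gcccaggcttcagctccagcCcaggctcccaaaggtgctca
In these stretches the 2 pseudogenes are the same as each other. Counts on them and on Rpl29 can therefore depend on how reads that match several places were shared out, which is not given in the sources used here. What sets the wt and KO libraries apart in these counts was not tested.

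Rpl34 had the same feature to a lesser degree. Its copy Rpl34-ps1 on chromosome 6 (71124610 to 71124963) had 2.30 to 11.5 CPM in the wt libraries, 231 to 818 in KO#1 and 118 to 241 in KO#2. It differs from the 351 coding bases of Rpl34 at T132C and C318G, shown here for the reason given for Rpl29.
Rpl34, coding bases 112 to 152: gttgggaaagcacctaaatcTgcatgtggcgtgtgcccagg
Rpl34-ps1, coding bases 112 to 152: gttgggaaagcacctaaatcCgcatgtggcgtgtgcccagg
Rpl34, coding bases 298 to 338: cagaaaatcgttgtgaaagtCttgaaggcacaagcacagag
Rpl34-ps1, coding bases 298 to 338: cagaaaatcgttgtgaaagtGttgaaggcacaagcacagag
With the 8 copies summed in, Rpl34 was still lower in KO#2 than in wt at 24 h, at -2.31 ± 0.44 (adjusted p = 0.000650) as against -3.00 ± 0.50.

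**Figure D4:**
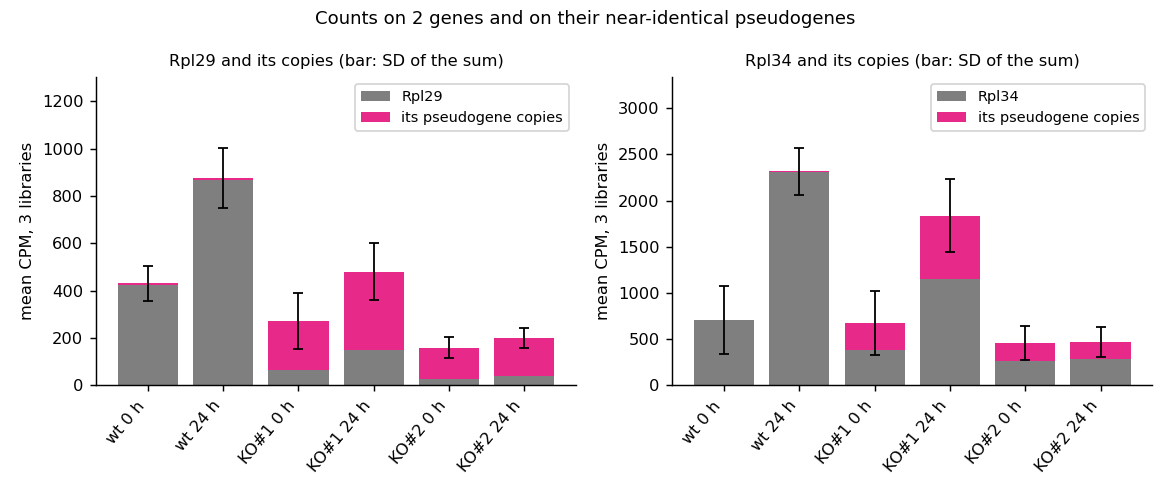
Mean CPM of 3 libraries for Rpl29 (left) and Rpl34 (right) in grey with their pseudogene copies stacked in pink, and the SD of the sum as a bar, by group. The copies are at most 1.25% of the stack in wt and 68.6% to 81.8% of it for Rpl29 in the KO clones. The stack is still lower in KO#2 than in wt at 24 h.

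Over the whole group, 936 annotated pseudogenes matched 72 of the 76 members at 90% identity or more over at least 150 bases. Counts on these copies were 0.688% to 0.993% of the members' counts in the wt libraries, 3.96% to 4.53% in KO#1 and 7.86% to 8.14% in KO#2. The 3 ranges did not overlap. In KO#1 the share was 4.50% to 4.53% at 0 h and 3.96% to 4.28% at 24 h, and in the other lines the times overlapped. The copies took over 10% of the sum for 1 member in wt at either time, for 12 in KO#1 and 14 in KO#2 at 0 h, and over 50% for Rpl29 alone. Besides Rpl29 and Rpl34, the largest shares in KO#2 at 0 h were those of Rpl21 (41.5%), Rpl26 (33.0%) and Rps7 (26.9%). With all copies summed into their members, 63 members were called higher in wt, 47 in KO#1 and 0 in KO#2 at 24 h against 0 h, and 65 were lower in KO#2 than in wt at 24 h. The members' response and the 24 h difference thus kept nearly the same counts, and the differences of Rpl29 between KO#1 and wt did not.

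What the members share beyond their names gave weak relations to their change. The median log2 fold change in wt was 1.24 for the 13 genes with a pyrimidine run at the annotated start and 1.07 for the 43 matched genes without. Rpl28 (0.55) and Rps27 (1.80), both with such a run, lie near the opposite ends of the range. The 29 genes that hold 57 snoRNA genes inside them had a median of 1.02 and the other 47 of 1.14. Across the 76 genes, Pearson's r between the log2 fold change in wt and the log2 of exon length was -0.20. With the average log2 CPM it was -0.30. Both are descriptions of genes that share the same libraries. The 76 genes lie on 19 chromosomes.

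Ribosomal protein genes measured under other names included Fau and Rps3a1. Fau, made as a fusion of a ubiquitin-like protein with Rps30, had 471, 459.7 and 453 CPM in wt at 0 h and 1088, 918 and 916 at 24 h (1.08 ± 0.28, adjusted p = 0.00410). Rps3a1 rose by 1.39 ± 0.44 in wt. At 24 h both were lower in KO#2 than in wt, Fau at -1.75 ± 0.28 and Rps3a1 at -1.13 ± 0.43. Of 10 related genes, 9 paralogs and Rpl9-ps6, which is named as a pseudogene, 8 rose in wt, 4 in KO#1 and 3 in KO#2, where 26.0%, 20.1% and 12.7% of all genes were called higher. Rpl9-ps6 was among those that rose in wt only (1.34 ± 0.46, adjusted p = 0.0225). Rpl39l went from 12.5, 16.7 and 9.59 CPM to 161, 116 and 82.2 in wt (3.21 ± 0.42, adjusted p = 1.54e-05), from 22.2, 26.9 and 47.5 to 278.5, 209.6 and 140.5 in KO#1 (2.69 ± 0.41) and from 14.3, 28.1 and 23.2 to 33.1, 44.9 and 85.5 in KO#2 (1.32 ± 0.39, adjusted p = 0.0184). It overlapped between times in no line. Rps27l and Rpl36al rose in wt by 2.38 ± 0.54 and 2.02 ± 0.38, and had 0.11 ± 0.51 and 0.59 ± 0.36 in KO#2. Rpl10l and Rpl7l1 rose in wt (1.36 ± 0.31 and 1.25 ± 0.27) and in KO#2 (0.87 ± 0.30 and 0.83 ± 0.27). Rpl22l1, the partner of Rpl22, had 0.91 ± 0.43 in wt (adjusted p = 0.0854). Rpl3l, the muscle form of Rpl3, had 0.261 to 2.20 CPM.

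Genes that make the ribosome and work with it also rose in wt cells, and several of them rose in KO#2 cells as well. Of 62 ribosome biogenesis factors, 53 rose in wt, 43 in KO#1 and 34 in KO#2, with medians of 1.40, 0.93 and 0.83. Of 20 genes of RNA polymerase I and its factors, 16, 15 and 9 rose, with medians of 1.19, 0.95 and 0.80. Polr1b, its second largest subunit, rose by 1.10 ± 0.27 in wt, 0.87 ± 0.26 in KO#1 and 1.25 ± 0.27 in KO#2, and Nop56, of the box C/D snoRNP, by 1.00 ± 0.28 in wt and 0.84 ± 0.28 in KO#2. Over all genes, 26.0%, 20.1% and 12.7% were called higher in these lines. Of the proteins of the mitochondrial ribosome, which is built from nuclear genes of its own, 46 of 48 of the large and 24 of 29 of the small subunit rose in wt, 29 and 18 in KO#1, and 16 and 6 in KO#2. At 24 h, 38 and 21 of these were lower in KO#2 than in wt, where 16.0% of all genes were. Mrpl12 rose by 1.48 in wt and by 1.06 in KO#2 (adjusted p = 0.000134 and 0.00411).

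Other genes with a TOP messenger moved in both directions. Of 17 such translation factors and related genes, 11 rose and 2 fell in wt, 5 rose and 1 fell in KO#1, and 1 rose in KO#2. These are 64.7%, 29.4% and 5.88% called higher, where 26.0%, 20.1% and 12.7% of all genes were. Npm1, a nucleolar chaperone of ribosomal proteins, went from 274, 870.5 and 487 CPM to 3018, 2517 and 1198 in wt (2.04 ± 0.54, adjusted p = 0.00460). Eef1a1, the elongation factor that brings tRNA, rose by 1.02 ± 0.33 in wt. Eef2 had -0.36 ± 0.26 (adjusted p = 0.249), and Pabpc1, the poly(A)-binding protein, fell by 1.74 ± 0.42 on the log2 scale in wt (adjusted p = 0.00247). Of 22 other initiation factors 16 rose and 1 fell in wt, and 6 rose in KO#2, where 5 of 11 import and assembly chaperones rose too, with 8 in wt. Of 11 hosts of snoRNAs outside the members, 8 rose in wt, 8 in KO#1 and 0 in KO#2, and Gas5, itself with a TOP start, rose by 1.22 ± 0.43 in wt and had 0.21 ± 0.42 in KO#2.

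**Figure D5:**
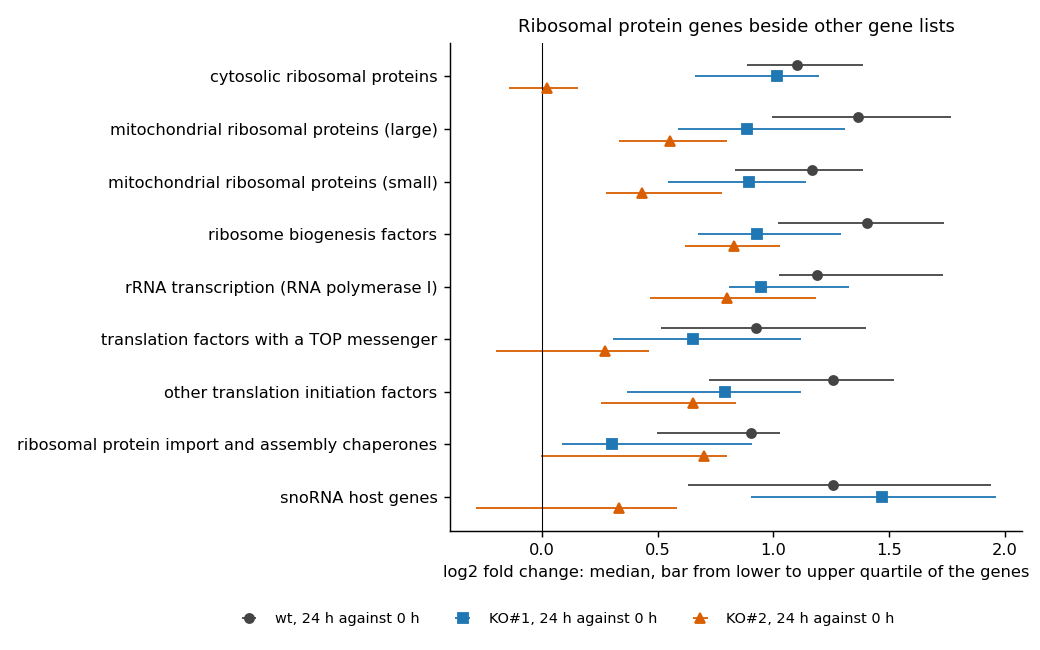
Median log2 fold change from 0 h to 24 h (x axis) of each gene list in wt (circles), KO#1 (squares) and KO#2 (triangles), with bars from the lower to the upper quartile of its genes. The cytosolic ribosomal proteins have medians of 1.10, 1.02 and 0.02, and the ribosome biogenesis factors 1.40, 0.93 and 0.83. The bars show the spread over genes, not an error over libraries.

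Among 17 regulators of TOP messengers and growth, 5 rose and 8 fell in wt, 1 rose and 8 fell in KO#1, and 4 rose and 1 fell in KO#2. Over all genes, 26.0%, 20.1% and 12.7% were called higher and 24.7%, 20.6% and 13.3% lower, so the 29.4% called higher in wt is near the background. Myc, which drives many ribosomal genes, rose in all 3 lines, by 3.50 ± 0.43, 4.48 ± 0.46 and 3.95 ± 0.42. Larp1, which holds TOP messengers back, had 447, 215 and 301 CPM in wt at 0 h and 140, 114 and 182.5 at 24 h (-1.14 ± 0.37, adjusted p = 0.0160), fell in KO#1 (-1.39 ± 0.37, adjusted p = 0.00692), and had 0.49 ± 0.37 in KO#2. Mtor fell in wt and KO#1 (-0.85 ± 0.28 and -0.95 ± 0.28) and had -0.20 ± 0.28 in KO#2. Eif4ebp1, an inhibitor of translation initiation, rose in wt by 0.64 ± 0.25 and was lower in KO#2 than in wt at 24 h (-1.15 ± 0.25, adjusted p = 0.00204). Of 12 genes of the p53 response to free ribosomal proteins, 4 rose and 4 fell in wt, 1 rose and 4 fell in KO#1, and 0 rose and 2 fell in KO#2, with medians of 0.00, 0.16 and -0.58. In wt these are 33.3% in each direction, not far from the shares over all genes. Cdkn1a, a cell cycle inhibitor, fell in all 3 lines and was lower in KO#2 than in wt at 24 h (-1.40, adjusted p = 0.00436). The differences between lines in these lists were not tested list by list.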

How the data were processed

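The data are counts of reads per gene in 18 RNA-seq libraries of mouse iPSCs. The authors deposited 1 table of whole-number counts. Per the study's methods, reads were trimmed, ribosomal RNA reads were discarded, and the rest were aligned with STAR to Ensembl's GRCm38 and quantified per gene with Salmon or StringTie. The libraries came from a strand-marking total RNA kit and were sequenced in paired-end format. The labels name DESeq2. The annotation release, whether counting used the strand, and the treatment of reads with several matches are not given in the sources used here. Discarding ribosomal RNA reads before counting can shift library composition, which scaling then has to absorb.

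Samples were mapped to 6 groups by their titles. From the counts, CPM were computed with TMM factors (0.508 to 1.45), and genes were tested with edgeR 4.0.16 (R 4.3.3), filterByExpr with a minimum count of 10, 1 model of 6 group means, the quasi-likelihood test, and Benjamini-Hochberg adjustment over the 16619 genes tested, with a threshold of 0.05. SE is the fold change over the root of F. Values ± SE are log2 fold changes. The model was tested on simulated data. DESeq2 1.42.0 was an alternative, with other scalings, filters, sample sets and left-out libraries. The labels call the replicates biological. The p-values rest on the spread between replicates within the 6 groups, estimated jointly over all 18 libraries. Same-numbered libraries deviated together in every pair only for KO#1 against wt at 24 h (r = 0.480, 0.223 and 0.587), where a replicate block changed no call.

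Genes named are, per comparison, the 3 largest rises and the 3 largest falls among called members whose groups did not overlap, and 15 members, Fau and 7 paralogs that are always given. 1 further gene that the rule names is not reported here. Others were chosen after their values were seen. The members and the lists were chosen with earlier results of these data known. Of the 45706 gene IDs, 45143 were in GENCODE M21 (GRCm38), which gave coordinates, exon lengths and pseudogene sequences. Copies were found with BLAST 2.17.0. Rack1, listed with the ribosomal proteins, and 6 other list genes (Utp4, Efl1, Snhg1, Snhg15, Epb41l4aos, Zfas1) had no row under these names.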

Additional observations from a re-analysis of the deposited data

How the results depend on the processing

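Scaled by library sizes alone, the members called at 24 h against 0 h were 5 in wt and 2 in KO#1, those called in KO#2 against wt were 5 at 0 h (4 higher, 1 lower, the reverse of the reported direction) and 16 at 24 h, and 1 was called in KO#1 against wt at 24 h. At 0 h, KO#2 against wt gave 10 calls with no filter (8 lower, with Rpl7 and Rps4x higher), 11 with at least 10 counts in every library (10 lower, with Rpl4 higher) and 9 with the 2 groups alone, all lower. KO#1 against wt gave 2 calls at 0 h with DESeq2 and 0 with copies summed, an alternative chosen after seeing the data, and at 24 h 1 with the 2 groups alone and 1 with copies summed. The response difference of KO#2 gave 10 calls with DESeq2 and 11 with no filter. The cause of these moves was not tested. Leaving out each library in turn gave 31 to 66 calls in wt, 17 to 63 in KO#1 and 0 each time in KO#2 at 24 h against 0 h, 1 each time (0 h) and 1 to 2 (24 h) in KO#1 against wt, 3 to 29 (0 h) and 55 to 70 (24 h) in KO#2 against wt, and 0 each time in KO#1 and 0 to 1 in KO#2 for the response differences. Of 51 calls of single members that the naming rule covers or the text gives, 25 were kept whichever library was left out and 12 under every alternative. Library sizes alone ended 31 and turned the sign of 6, to -0.0183, -0.16 and -0.0461 for Rplp0, Rplp2 and Rps19 in KO#1 at 24 h against 0 h, and to 0.00739, 0.14 and 0.15 for Rpl3, Rps27a and Rps6 in KO#2 against wt at 24 h (log2). In KO#2 against wt at 0 h, the calls of Rpl13, Rpsa, Rplp0, Rpl22 and Rpl38 were lost in 14, 4, 3, 3 and 2 of the fits that left out 1 library.

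The mean share of counts on the members was 5.91%, 7.87%, 6.94%, 7.47%, 5.91% and 5.78% of all counts in wt, KO#1 and KO#2, each at 0 h and then at 24 h. Against protein-coding counts it was 9.51%, 14.5%, 9.95%, 14.7%, 7.56% and 6.94%, against the TMM-scaled total 11.7% and 11.7% in wt and KO#1 at 24 h and 4.16% and 4.17% in KO#2, and without the 100 largest other genes 10.4%, 16.3%, 10.9%, 16.4%, 8.26% and 7.67%. Leaving out a library gave 5.09% to 6.90% in wt at 0 h.

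A replicate block was fitted as an alternative and gave 67 calls in wt, 51 in KO#1, 0 in KO#2, 1, 22, 2 and 67 in the differences from wt in the order KO#1 and KO#2 at 0 h, KO#1 and KO#2 at 24 h, and 0 for both response differences. It ended 0 of the 51 calls. Rpl28, Rpl36a, Rps10, Rps20 and Rps27a were gained in wt, and Rps24 was lost in KO#2 against wt at 24 h. The titles and column names mark same-numbered libraries alike, and whether these were prepared together is not stated. In KO#2, 24 h against 0 h, their correlations were 0.457, 0.333 and -0.00055.

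Every member had at least 218 counts in every library. Counts of genes with near-identical copies remain uncertain.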
